A study of Homo sapiens with 14 samples.

Results

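The 10 genes of the elastic fibre and its crosslinking described here were followed in IMR90 cells, a line of primary human lung fibroblasts, out of 54628 gene symbols counted in each of 14 RNA-seq libraries. They are elastin (ELN), the fibrillins FBN1 and FBN2, the fibulins FBLN1, FBLN2, FBLN5 and EFEMP2 (fibulin-4), and the lysyl oxidases LOX, LOXL1 and LOXL2. They were listed by function, and the list was drawn up because ELN had been seen to be far lower in cells treated with inflachromene (ICM) than in untreated cells, so the levels under ICM against untreated cells are given below as a description and are no test of these genes. All 10 genes passed the filter on low counts in each comparison.

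An elastic fibre is a core of crosslinked elastin laid on a scaffold of fibrillin microfibrils. Fibroblasts secrete elastin as a soluble monomer, fibulins bring it together with the microfibrils and with the crosslinking enzymes, and lysyl oxidases, which are copper enzymes, oxidise lysine side chains so that the monomers bond to one another. In the lung these fibres carry the elastic recoil of the alveolar wall, and fibroblasts are among their main producers.

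The untreated groups were wild-type cells (WT) and cells in which HMGB2, a chromatin protein, had been knocked down by siRNA (siHMGB2). ICM, a small molecule used here at 10 µM for up to 6 days to induce senescence, was given to the ICM group and to the cells with a knockdown of SRRM2, BANF1 or CTCF (siSRRM2, siBANF1, siCTCF). No label names a control siRNA. The culture notes name more than one isolate of the line and do not say which library came from which, nor whether replicates were separate cultures, so p-values measure only the spread between these libraries, which may be technical. Every group had 2 libraries apart from ICM, which had 4. ICM 3, ICM 4 and both siCTCF libraries carry titles and source names of another form than the other 10 libraries (source names IMR91 to IMR94) and are treated as a second set. WT was present in the first set only, so for ICM 3 and ICM 4 the treatment and the set cannot be told apart.

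Depth was 22336161 to 58257456 gene counts per library. The 9 fibroblast markers each exceeded 1 CPM (a gene's count per 1000000 gene counts of its library) in all 14 libraries, while the 5 epithelial markers summed to at most 1.63 CPM. Messenger RNA of the mitochondrial genome made up 2.7% to 3.54% of gene counts in the 4 untreated libraries and 0.0675% to 0.754% in the 10 ICM-treated ones, and small structural RNA genes made up 3.19% to 6.06% in the 6 ICM-treated libraries of the first set against at most 0.00812% elsewhere. Within the first set the higher small RNA share thus ran with ICM treatment. For ICM 1-2 against WT, the treatment and this difference in composition cannot be told apart. HMGB2 levels of 27.7 and 28.0 CPM in WT stood against 3.18 and 3.52 CPM with siHMGB2. For SRRM2, ICM 1 and ICM 2 gave 237.8 and 112.4 CPM, the siSRRM2-labelled libraries 76.0 and 76.4 CPM, and the siBANF1-labelled ones less still, 59.0 and 17.0 CPM. For BANF1, ICM 1 and ICM 2 gave 13.5 and 32.7 CPM and the siBANF1-labelled libraries 17.0 and 36.7 CPM. The siSRRM2-labelled libraries gave 34.2 and 33.3 CPM, so BANF1 was not lower in either labelled pair. In these 4 libraries the deposited file names give the opposite knockdown of the pair. Groups were taken from the labels, and directions stated for them depend on that. For CTCF, ICM 3 and ICM 4 gave 94.9 and 91.9 CPM and siCTCF 71.5 and 23.0 CPM.

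The promoters of 3 members are shown, because FBLN1 was, after ELN, the member with the largest difference between WT and ICM 1-2, and because LOX and LOXL1, enzymes of 1 family, parted in the libraries labelled siSRRM2. Each is the 250 bases before the first listed start site, 5′ to 3′ on the gene's strand, from RefSeq on build GRCh38.p14, and capitals mark a GC box (GGGCGG, or CCGCCC on the other strand), the short motif bound by Sp1-type factors. The windows lie at chr22:45502633-45502882 on the plus strand for FBLN1, at chr5:122078260-122078509 on the minus strand for LOX, and at chr15:73926212-73926461 on the plus strand for LOXL1.
FBLN1: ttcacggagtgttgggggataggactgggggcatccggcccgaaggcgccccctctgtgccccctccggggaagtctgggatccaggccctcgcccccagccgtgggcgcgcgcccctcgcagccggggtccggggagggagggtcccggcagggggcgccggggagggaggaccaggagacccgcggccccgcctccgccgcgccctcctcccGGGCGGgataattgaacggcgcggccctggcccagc
LOX: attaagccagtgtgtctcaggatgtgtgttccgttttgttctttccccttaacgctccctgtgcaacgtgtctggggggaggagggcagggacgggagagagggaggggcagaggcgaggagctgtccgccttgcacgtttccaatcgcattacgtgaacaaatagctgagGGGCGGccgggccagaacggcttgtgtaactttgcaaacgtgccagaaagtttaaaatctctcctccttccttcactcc
LOXL1: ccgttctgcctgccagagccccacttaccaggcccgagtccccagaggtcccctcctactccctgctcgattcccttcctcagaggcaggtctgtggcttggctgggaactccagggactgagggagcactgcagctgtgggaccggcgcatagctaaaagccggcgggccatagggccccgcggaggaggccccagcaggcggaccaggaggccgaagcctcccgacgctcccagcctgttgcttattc

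Of the 10 members, 8 had a promoter entry (ELN and LOXL2 did not). Over windows of 300 bases, from 250 before to 50 after the start, the GC box was found in the first window of 6 of these 8, and in 45% of all 35116 promoters of the table. The FBLN1 and LOX windows held 1 GC box each, that of EFEMP2 held 6 and that of FBLN2 held 7, and those of LOXL1 and FBN1 held 0. G and C made up 58.0% of the LOX window and 81.0% of the FBLN2 window, with a median of 58.7% over the table. The letters TATAAA (or TTTATA), found in 11.5% of all promoters, and TGANTCA, found in 7.71%, did not occur in the first window of any of the 8. These matches describe the letters of the windows and were not tied to the levels of the genes.

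Elastin set the 2 untreated groups apart from all ICM-treated cells and from each other. ELN (7:74027789-74069907 on GRCh38, plus strand) reached 69.4 CPM in WT 1 and 88.4 CPM in WT 2, and the siHMGB2 libraries reached 196.6 and 268.0 CPM. In the 10 ICM-treated libraries it lay between 0.203 CPM in ICM 2 and 2.91 CPM in siCTCF 1, the others being ICM 1 (1.78 CPM), ICM 3 (2.64 CPM), ICM 4 (0.946 CPM), the pairs labelled siSRRM2 (1.42 and 1.99 CPM) and siBANF1 (0.837 and 0.378 CPM), and siCTCF 2 (1.12 CPM). None of the ICM-treated libraries came near a WT library, and the siHMGB2 libraries did not overlap with WT. The lowest value rested on 11 counts and the highest on 11033. Among the ICM-treated groups the order of the means (siCTCF, ICM 3-4, siSRRM2, ICM 1-2, siBANF1) was one in which each neighbouring pair overlapped. On the fitted scale the difference of ICM from WT was a log2 fold change of -6.40 (SE 0.99) for ICM 1-2 and -5.68 (SE 0.96) for ICM 3-4. Leaving out 1 ICM library moved these to between -8.79 (without ICM 1) and -5.53 (without ICM 2), and to between -6.68 (without ICM 3) and -5.07 (without ICM 4). In bulk RNA, fewer cells of a type and less RNA per cell cannot be told apart. An antisense gene, ELN-AS1, shares 165 exonic bases with ELN and was at 1.41 CPM or less in all libraries, and whether the counting used strand was not given in the sources used here.

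**Figure D1:**
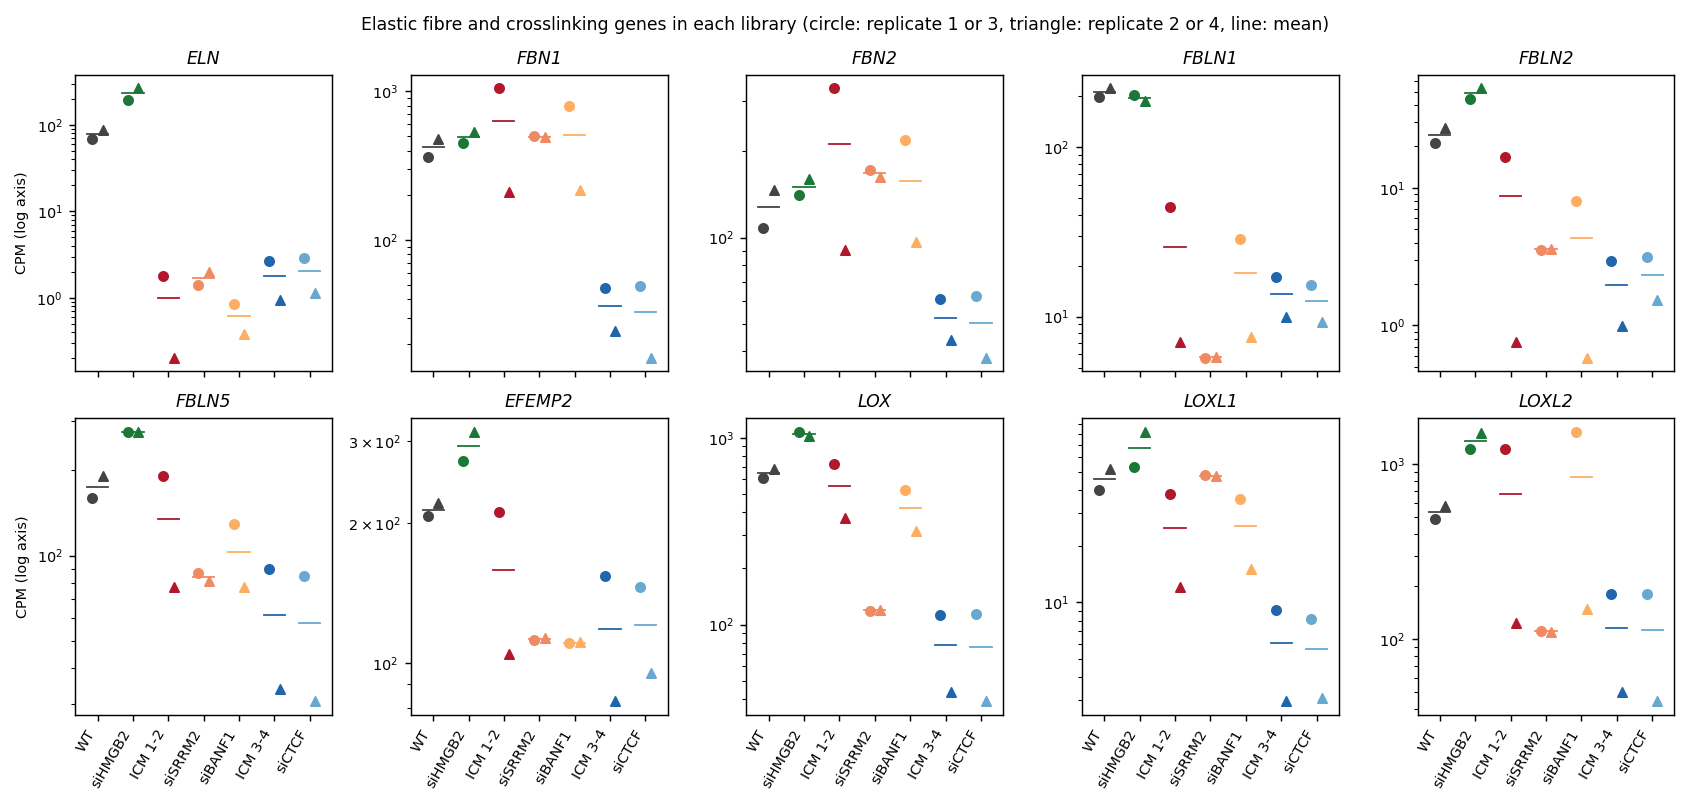
CPM of each of the 10 members (vertical log axes, a different range in each panel) in the 7 sets of libraries, with 1 point per library and a line at the mean of 2. ELN lies between 69.4 and 268.0 CPM in the 4 untreated libraries and at or below 2.91 CPM in the other 10, whereas FBN1 in ICM 1 (1053.5 CPM) lies above both WT libraries.

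The microfibril genes took another course, and one that differed between the 2 sets of ICM libraries. FBN1 (15:48408306-48645849, minus strand), the main fibrillin of adult tissue, reached 362.5 and 478.7 CPM in WT, 1053.5 CPM in ICM 1 but 209.3 CPM in ICM 2, and only 47.5 and 24.3 CPM in the ICM 3-4 pair. ICM 1 and ICM 2 thus lay on opposite sides of WT, and ICM 3-4 lay below it with no overlap. FBN2 (5:128257909-128659185, minus strand), the fibrillin best known from development, reached 107.9 and 147.0 CPM in WT, 333.0 and 90.1 CPM in the ICM 1-2 pair, and 61.2 and 43.8 CPM in ICM 3-4. The log2 fold change from WT was 0.50 (SE 0.82) for FBN1 and 0.64 (SE 0.59) for FBN2 in ICM 1-2, and -3.77 (SE 0.91) and -1.51 (SE 0.61) in ICM 3-4. Without ICM 1 the FBN1 value in the first set turned to -1.21 and that of FBN2 to -0.71, and without ICM 3 the FBN1 value in the second set was -4.41.

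The balance between the 2 fibrillins followed the set. For every 100 FBN1 counts there were 29.8 and 30.7 FBN2 counts in WT, 31.2 and 30.1 in siHMGB2, and 27.6 to 44.1 in the 6 ICM-treated libraries of the first set. In the second set the ratio was 128.7 and 180.1 in ICM 3 and ICM 4 and 127.6 and 235.3 in siCTCF, so FBN2 outnumbered FBN1 there and in none of the other 10 libraries. ELN also parted from FBN1: per 100 FBN1 counts there were 19.2 and 18.5 ELN counts in WT, 43.7 and 50.6 in siHMGB2, 0.0968 to 0.407 in the first set under ICM and 3.89 to 6.93 in the second.

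Among the fibulins, FBLN1 and FBLN2 were below both WT libraries in every ICM-treated library, though FBLN2 only slightly so in ICM 1. FBLN5 and EFEMP2 were below both in 9 of the 10. FBLN1 (22:45502238-45601135, plus strand), which binds elastin and basement membrane proteins, reached 198.1 and 223.8 CPM in WT, 44.3 and 7.06 CPM in ICM 1-2 and 17.2 and 9.89 CPM in ICM 3-4, and its lowest levels, 5.73 and 5.76 CPM, were those of the siSRRM2-labelled pair. FBLN2 (3:13549131-13638422, plus strand) reached 21.4 and 27.1 CPM in WT, against 16.8 CPM for ICM 1 and 0.755 CPM for ICM 2, and the other 8 ICM-treated libraries lay between 0.584 and 8.09 CPM. Both genes were thus below the lower WT library in all 10 ICM-treated libraries, as was ELN. That pattern was found in 3 of the 10 members and in 10% of the 9202 genes that averaged 10 CPM or more, and since ELN was chosen on it nothing is read from the count.

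FBLN5 (14:91869412-91947987, minus strand), which tethers elastin to microfibrils and cells, reached 159.5 and 191.0 CPM in WT, 191.2 and 77.4 CPM in ICM 1-2, and 89.5 and 33.7 CPM in ICM 3-4. EFEMP2 (11:65866441-65873592, minus strand), which brings LOX to elastin, reached 206.6 and 220.6 CPM in WT, 211.6 and 104.7 CPM in ICM 1-2, and 153.4 and 82.6 CPM in ICM 3-4. In both genes ICM 1 lay within the WT range or at its edge and ICM 2 well below it. The log2 fold change of FBLN1 was -3.12 (SE 0.84) in ICM 1-2 and -4.19 (SE 0.88) in ICM 3-4. That of EFEMP2 was -0.54 (SE 0.41) and -1.08 (SE 0.42). FBLN2 lay between them in both, at -1.53 (SE 1.23) and -3.85 (SE 1.38). FBLN5 lay between them in ICM 3-4, at -1.72 (SE 0.63), but not in ICM 1-2, at -0.48 (SE 0.62). Without ICM 1 the ICM 1-2 values of FBLN1 and FBLN2 were -5.11 and -5.21, against -2.31 and -0.59 without ICM 2, and that of FBLN5 turned to 0.067 without ICM 2.

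**Figure D2:**
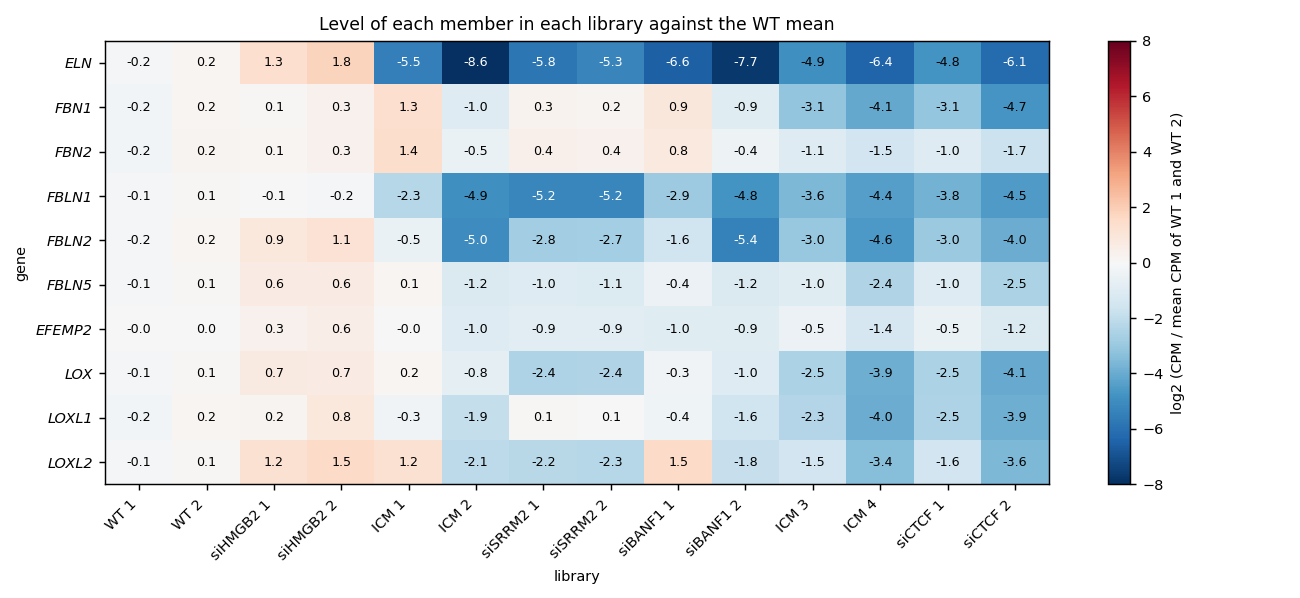
Log2 of the CPM of each member (rows) in each library (columns) over the mean of WT 1 and WT 2, with blue for lower and red for higher. ELN, FBLN1 and FBLN2 are blue in all 10 ICM-treated libraries, and all 10 rows are blue in the 4 libraries of the second set. Among the ICM-treated libraries, FBN1 and FBN2 are red in ICM 1 and siBANF1 1. They are also above 0 in the pair labelled siSRRM2 (FBN1 0.26 and 0.22, FBN2 0.44 and 0.35).

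The lysyl oxidases differed from one another. LOX (5:122063195-122078360, minus strand), the founding enzyme, reached 609.0 and 681.0 CPM in WT, 726.6 and 373.3 CPM in ICM 1-2, and 113.0 and 43.4 CPM in ICM 3-4. LOXL1 (15:73925989-73952137, plus strand), the family member tied most closely to elastin, reached 39.8 and 52.0 CPM in WT, 37.9 and 12.1 CPM in ICM 1-2, and 9.16 and 2.96 CPM in ICM 3-4. LOXL2, known for crosslinking basement membrane and fibrillar collagens, reached 482.8 and 574.0 CPM in WT, 1218.8 and 123.7 CPM in ICM 1-2, and 181.9 and 50.1 CPM in ICM 3-4. As with the fibrillins, ICM 1 and ICM 2 lay on either side of WT for LOX and LOXL2, and ICM 3-4 lay below WT for all 3 enzymes. The log2 fold changes in ICM 1-2 were -0.34 (SE 0.60) for LOX, -0.97 (SE 0.72) for LOXL1 and 0.27 (SE 1.16) for LOXL2, and in ICM 3-4 -3.26 (SE 0.65), -3.13 (SE 0.78) and -2.39 (SE 1.22). Single libraries decided the signs in the first set: LOXL2 turned to -2.30 without ICM 1 and to -0.52 with a replicate block, and LOX turned to 0.11 without ICM 2. In the second set the values of LOX, LOXL1 and LOXL2 were -4.19, -4.25 and -3.70 without ICM 3 and -2.68, -2.50 and -1.71 without ICM 4. LOXL1 shares 232 exonic bases with the antisense gene LOXL1-AS1, which was at 1.22 to 10.3 CPM.

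Compared per length (CPM per kb of exon), LOXL2, LOX and EFEMP2 were the most abundant members in WT, with mean levels of 148.9, 124.5 and 105.0, and ELN stood at 19.7, next to LOXL1 at 19.5. In siHMGB2 the ELN level was 58.1 per kb, and it was 0.248 in ICM 1-2 and 0.448 in ICM 3-4. EFEMP2 was the most abundant member in ICM 3-4, at 58.0 per kb, ahead of LOXL2 at 32.7.

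Counted by the threshold used for all genes (an edgeR adjusted p under 0.05), 2 members were lower in ICM 1-2 against WT (ELN and FBLN1) and 0 higher, where 13.5% of all 19126 genes were called and 6.87% were called lower. In ICM 3-4 against WT, 5 were lower (ELN, FBN1, FBLN1, LOX and LOXL1) and 0 higher, where 30.3% of genes were called and 16% were called lower. All 10 members were below the lower WT library in all 4 libraries of the second set, a position held by 29.8% of the 9202 genes. Because the list was drawn up on this contrast, these counts are no test of the members, and nothing is read from them. The median log2 fold change of the members was -0.51 in ICM 1-2 and -3.20 in ICM 3-4, and that of all genes 0.10 and -0.02. The 9 fibroblast markers, among them the collagens COL1A1 and COL3A1, summed to 19297 and 25909 CPM in WT. Their sum was 12673 and 4153 CPM in the ICM 1-2 pair and 4226 and 2050 CPM in ICM 3-4. In ICM 1, COL1A1, COL1A2, COL3A1 and DCN were below both WT libraries and PDGFRB was above both. There PDGFRA, THY1, VIM and LUM lay between the WT libraries, while in ICM 2, ICM 3 and ICM 4 every fibroblast marker was below both. The 4 endothelial markers summed to 68.5 and 82.7 CPM in WT, 242.5 and 68.2 CPM in ICM 1-2, and 15.7 and 2.96 CPM in ICM 3-4, nearly all of it from TEK, with CDH5 at 0.0225 CPM or less and PECAM1 at 0.135 CPM or less in every library. The 3 blood markers summed to 12.95 CPM in ICM 1 and to at most 1.43 CPM in WT, nearly all of it from CD14, with PTPRC at 0.0894 CPM or less and CD3E at 0. The part of these changes and of the library composition given above in the members' levels was not tested.

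**Figure D3:**
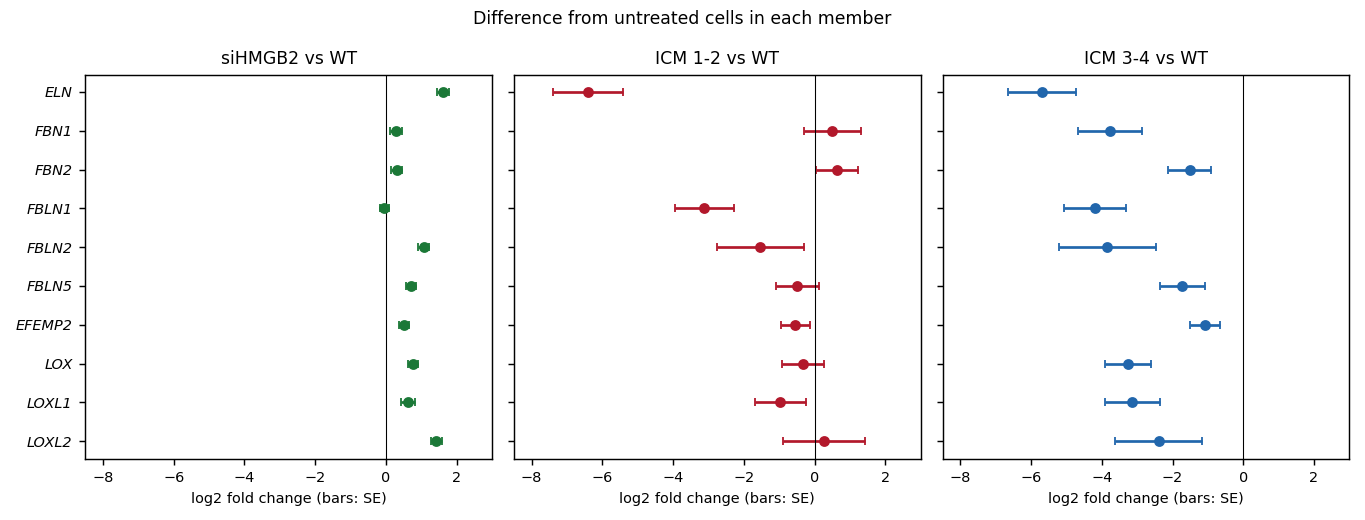
Log2 fold change of each member against WT (horizontal axes, points with bars of 1 SE) for siHMGB2, ICM 1-2 and ICM 3-4. With siHMGB2 the values lie between -0.04 (FBLN1) and 1.62 (ELN), while with ICM 3-4 all 10 lie below 0, from -1.08 (EFEMP2) to -5.68 (ELN).

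In several groups the libraries differed in the same direction along the whole list. All 10 members were higher in ICM 1 than in ICM 2, by 1.95-fold to 22.2-fold (median 4.36). All 10 were also higher in ICM 3 than in ICM 4, by 1.40-fold to 3.63-fold, and in siCTCF 1 than in siCTCF 2, by 1.54-fold to 4.07-fold, and 9 of 10 were higher in siBANF1 1 than in siBANF1 2. Of the 9202 genes averaging 10 CPM or more, 37.1% were higher in ICM 1 than in ICM 2 and 46.3% in ICM 3 than in ICM 4. The share was 42.5% for siCTCF 1 over siCTCF 2 and 39% for siBANF1 1 over siBANF1 2. The directions of ICM 1-2, ICM 3-4 and siCTCF were shared by 18% of these genes and by all 10 members. The siBANF1 pair, where EFEMP2 did not follow (ratio 0.995), was left out of that count, so it is a description and no test. In WT, 0 of 10 members were higher in WT 1 than in WT 2, with ratios of 0.734 to 0.936, against 46.5% of these genes. For siHMGB2 1 over siHMGB2 2 it was 3 of 10 members and 56% of these genes. The siSRRM2 libraries lay close to each other in every member but ELN, with a ratio of 0.711 for ELN and ratios of 0.982 to 1.07 for the others. Between libraries of different groups, the median difference over these genes on the log2 scale was 0.122 for ICM 2 with siBANF1 2. It was 0.089 for ICM 4 with siCTCF 2 and 0.128 for ICM 3 with siCTCF 1, against 0.732 for the ICM 1-2 pair.

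The comparison of siHMGB2 with WT sets untreated cells with the HMGB2 siRNA against untreated cells without it, and as no label names a control siRNA, loss of HMGB2 and transfection cannot be told apart. It is another contrast than the one that chose the list, but it shares the WT libraries with it, and the higher matrix genes of siHMGB2 were known when the list was drawn up. Elastin, the lysyl oxidases LOX and LOXL2 and 3 of the 4 fibulins rose, and LOXL1, the fibrillins and FBLN1 did not pass the test. In a fit to the 4 libraries of these groups, 6 of 10 members were called higher and 0 lower, where 10.9% of 15338 genes were called and 6.14% were called higher. The median log2 fold change was 0.67 over the members and 0.00 over all genes. ELN rose by a log2 fold change of 1.62 (SE 0.17, edgeR adjusted p = 7.57e-05), or 3.08-fold, with both siHMGB2 libraries above both WT libraries. LOXL2 was at 1212.8 and 1501.0 CPM against 482.8 and 574.0 CPM, a log2 fold change of 1.43 (SE 0.16, edgeR adjusted p = 0.000125). FBLN2 was at 44.2 and 53.2 CPM against 21.4 and 27.1 CPM, and rose by 1.07 (SE 0.16, edgeR adjusted p = 0.000584).

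LOX was at 1079.6 and 1026.6 CPM in siHMGB2 and rose by 0.77 on the log2 scale (SE 0.14, edgeR adjusted p = 0.00324). FBLN5 was at 274.2 and 272.9 CPM and rose by 0.71 (SE 0.14, edgeR adjusted p = 0.00485). EFEMP2, at 271.6 and 314.7 CPM, rose by the smallest called amount, 0.52 (SE 0.14, edgeR adjusted p = 0.0276). LOXL1 was at 52.9 and 82.2 CPM against 39.8 and 52.0 CPM, and its log2 fold change of 0.63 (SE 0.19) missed the threshold with an edgeR adjusted p of 0.0502. FBN1 was at 450.2 and 529.8 CPM, a log2 fold change of 0.29 (edgeR adjusted p = 0.320), and FBN2 at 140.7 and 159.7 CPM, one of 0.30 (edgeR adjusted p = 0.263). FBLN1, at 203.0 and 188.2 CPM, had a log2 fold change of -0.04 (edgeR adjusted p = 0.893).

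Both siHMGB2 libraries lay above both WT libraries in 7 members, the called ones and LOXL1, and in 23.6% of the 9202 genes. The call rests on the spread used: in a single fit to all 14 libraries the log2 fold changes were the same and 0 members and 0 genes were called, with an edgeR adjusted p of 1 for each. In the fit to the 4 libraries an unadjusted p under 0.05 was reached by 7 members and by 3662 of 15338 genes, and DESeq2 called 7 members and 1775 genes. Leaving out WT 1 left 4 members called, with FBLN5 at an edgeR adjusted p of 0.0916 and EFEMP2 at 0.229, and EFEMP2 was also lost without WT 2 (0.0848) and without siHMGB2 2 (0.139). The fibroblast marker sum was 27731 and 32737 CPM in siHMGB2, above WT, but its markers did not move together. COL1A1, COL1A2, VIM and PDGFRB lay above both WT libraries, COL3A1, PDGFRA and LUM below both, and THY1 and DCN overlapped with WT. COL1A1, for example, was at 10997 and 14223 CPM against 5093 and 8116, and COL3A1 at 1312 and 1419 against 2867 and 3606. The smooth muscle marker ACTG2 carried nearly all of a smooth muscle sum of 290.1 and 344.7 CPM against 76.5 and 149.2 CPM in WT. MYH11 was at 0.0394 CPM or less in every library. The part of these markers in the rise was not tested. Since the WT libraries are shared with the ICM comparisons, values are set side by side and no overlap between them is read as a result.

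In simulated data each gene had a single spread, estimated from the libraries of the fit. The 4-library fit recovered 88% of 2-fold and 100% of 4-fold changes for siHMGB2 against WT, with 11.3% of calls false, over 15002 genes. For the 5 other comparisons the single fit recovered at most 1% of 2-fold and 23% to 40% of 4-fold changes. A 2-fold difference in a knockdown under ICM was thus hardly detectable in that fit, which pools the spread of all 14 libraries. The simulation does not cover spreads that differ between groups. Over 9202 genes the median log2 difference was 0.05 within the siSRRM2 pair and 0.73 within ICM 1-2.

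**Figure D4:**
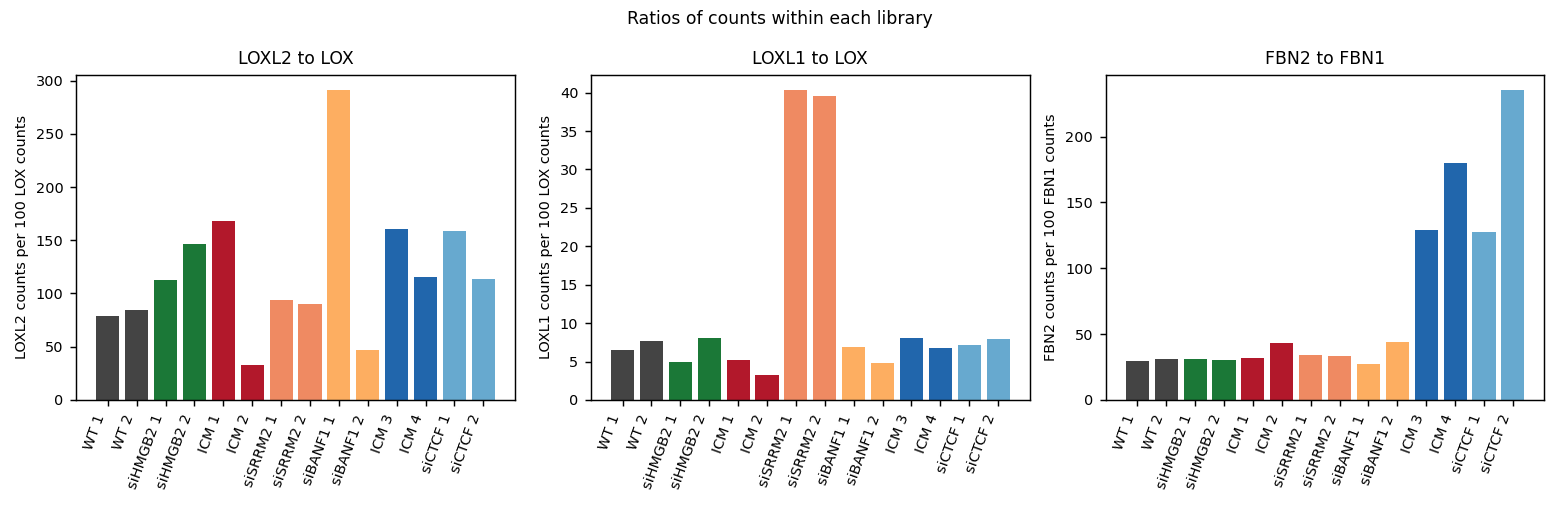
Counts of LOXL2 per 100 LOX counts, of LOXL1 per 100 LOX counts and of FBN2 per 100 FBN1 counts (bars from 0) in each of the 14 libraries. LOXL1 to LOX stands at 40.3 and 39.6 in the libraries labelled siSRRM2 and at 8.11 or less in the other 12, and FBN2 to FBN1 exceeds 100 in the 4 libraries of the second set only.

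In the libraries labelled siSRRM2, low LOX values stood beside LOXL1 values near those of WT, but no member passed the test against ICM 1-2. LOX reached 118.9 and 120.4 CPM there, below both ICM 1 and ICM 2, with a log2 fold change of -2.23 (SE 0.62, edgeR adjusted p = 0.206). LOXL1 was at 48.0 and 47.6 CPM, above both, with a log2 fold change of 0.89 (SE 0.72, edgeR adjusted p = 0.678). FBLN1 was below both ICM libraries, with a log2 fold change of -2.22 (SE 0.81, edgeR adjusted p = 0.331). LOXL2, at 111.9 and 109.0 CPM, lay just under ICM 2 and far under ICM 1, with a log2 fold change of -2.67 (SE 1.23, edgeR adjusted p = 0.451). ELN, at 1.42 and 1.99 CPM, overlapped with ICM 1-2 and stayed far below WT, with a log2 fold change of 0.74 (SE 0.84, edgeR adjusted p = 0.783). FBN1, at 502.0 and 489.4 CPM, and FBN2, at 172.4 and 162.7 CPM, lay between ICM 1 and ICM 2 and above both WT libraries.

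By the edgeR test 0 of 10 members passed in this comparison, where 0.178% of genes did, 2 members (LOX and FBLN1) and 2168 of 19126 genes had an unadjusted p under 0.05, and DESeq2 called 727 genes, 1 of them a member (LOX, log2 fold change -2.29, adjusted p = 0.0103). Without the filter on low counts, 814 of 33733 genes were called, among them 3 members, all lower (LOX, FBLN1 and LOXL2). Per 100 LOX counts there were 40.3 and 39.6 LOXL1 counts in the libraries labelled siSRRM2 and 3.24 to 8.11 in the other 12. This ratio was singled out after the values were seen. LOXL2 per 100 LOX counts was 94.1 and 90.6 in these libraries, between the 168 of ICM 1 and the 33.1 of ICM 2, and reached 291 in siBANF1 1.

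The libraries labelled siBANF1 differed less than ICM 1 and ICM 2 in every member but LOXL2, with a median ratio of 2.33 against 4.36. No member passed the test. ELN was at 0.837 and 0.378 CPM, FBN1 at 795.0 and 218.2 CPM, LOX at 525.9 and 315.1 CPM and LOXL2 at 1531.1 and 147.8 CPM, so the library numbered 1 was the higher one of the pair in these genes, as in ICM 1-2. By edgeR 0 members and 0 of 19126 genes were called (0%), an unadjusted p under 0.05 was found for 0 members and 591 genes, and DESeq2 called 0 members and 17 genes. The log2 fold changes of the members lay between -0.99 (SE 1.23) for FBLN2 and 0.36 (SE 1.16) for LOXL2.

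The siCTCF libraries gave values near those of ICM 3-4, and no member passed the test. LOX, for example, was at 113.6 and 38.9 CPM against 113.0 and 43.4 CPM, and FBN1 at 49.1 and 16.2 CPM against 47.5 and 24.3 CPM. The members' log2 fold changes were between -0.14 (SE 0.78) for FBLN1 and 0.24 (SE 1.29) for FBLN2. By edgeR 0 members and 0 genes were called (0%), an unadjusted p under 0.05 was found for 0 members and 125 genes, and DESeq2 called 0 of either. With standard errors of this size, differences well above 2-fold could not be told from 0 in the siBANF1 or siCTCF comparison. That limit belongs to the single fit, which pools the spread of all 14 libraries and does not pair same-numbered ones. With a replicate block, in fits to only the libraries compared, 0 members were called in both comparisons.

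Other genes of the pathway were taken from 3 lists. In siHMGB2 against WT, 7 of 22 tested microfibril-associated and other elastic fibre genes rose and 0 fell, led by MFAP2, a microfibril glycoprotein (36.0 and 38.5 CPM against 15.6 and 15.9, log2 fold change 1.30, SE 0.14, edgeR adjusted p = 7.00e-05). The other called genes were LTBP2, BGN, EFEMP1, FURIN, ADAMTS10 and ADAMTS6. Of 15 tested genes for crosslinking and matrix assembly 8 rose and 0 fell, led by POSTN, periostin, which binds BMP1 and matrix proteins (199.5 and 213.9 CPM against 69.2 and 83.5, log2 fold change 1.502, SE 0.14, edgeR adjusted p = 3.86e-05). The other 7 were P4HA2, FN1, PLOD2, LOXL4, PLOD1, BMP1 and PLOD3, of which the PLOD enzymes hydroxylate lysines of collagen and P4HA2 is a subunit of a collagen prolyl hydroxylase. These counts stand beside 10.9% of 15338 genes called and 6.14% called higher. DESeq2 called 8 genes higher and 0 lower in the first list, and 9 higher and 1 lower in the second. In the single fit to all 14 libraries none of the 15338 genes was called, as for the members.

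Of 12 tested genes of elastin turnover, proteases and their inhibitors among them, 2 rose and 2 fell with siHMGB2. The membrane protease MMP14 rose most (1432 and 1875 CPM against 939.8 and 914.7, log2 fold change 0.90, SE 0.16, edgeR adjusted p = 0.00267), and CTSK, the elastin-degrading cathepsin K, fell most (23.3 and 17.0 CPM against 42.2 and 33.7, log2 fold change -0.85, SE 0.17, edgeR adjusted p = 0.00468). LGALS3 also rose and CTSS, cathepsin S, also fell. DESeq2 called 2 higher and 2 lower in this list, and edgeR called 10.9% of all genes. The medians of the 3 lists were 0.31, 0.52 and 0.07 on the log2 scale, and that of all genes was 0.00.

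**Figure D5:**
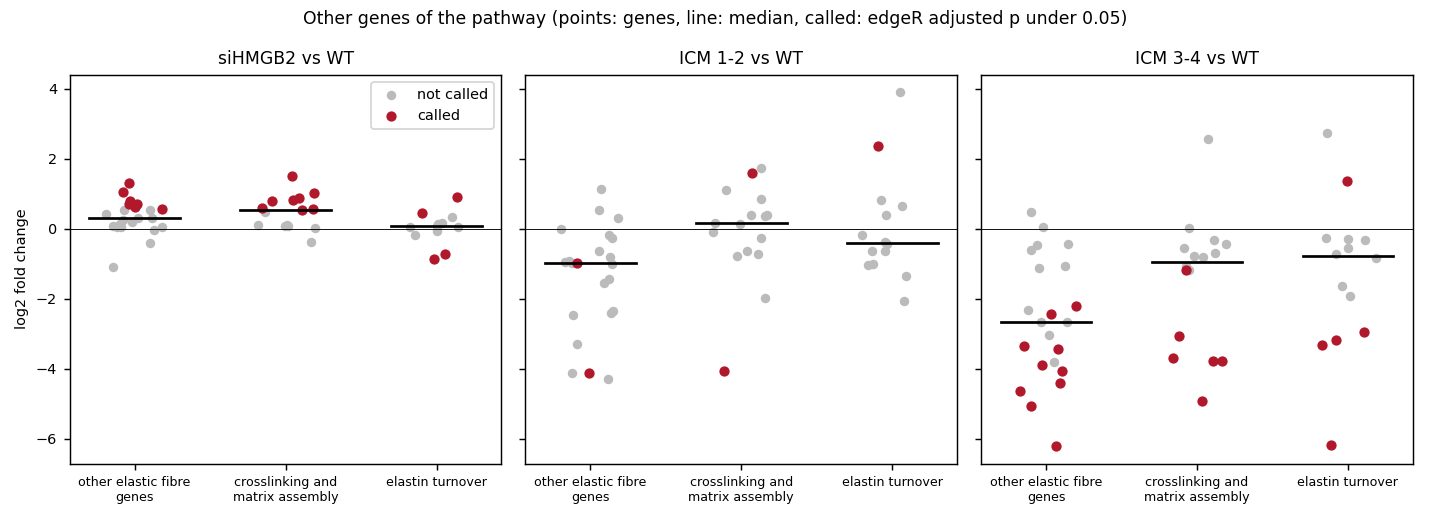
Log2 fold change (vertical axes) of the tested genes of the 3 lists in siHMGB2, ICM 1-2 and ICM 3-4 against WT, with red points for genes called by edgeR and a line at the list's median. With siHMGB2 the called genes of the first 2 lists lie above 0, and with ICM 3-4 they lie below 0, down to -6.21 for MFAP2.

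In ICM 1-2 against WT, 2 of 22 genes of the first list were called lower, FBLN7 (-4.12 on the log2 scale) and FURIN (-0.99), and 0 higher. In the crosslinking list LOXL4, another lysyl oxidase, was called higher (1.59; 31.4 and 12.7 CPM against 6.17 and 7.46) and POSTN lower (-4.07; 6.97 and 2.76 CPM against 69.2 and 83.5). MMP12, macrophage elastase, was the only turnover gene called (2.35), at 1.48 and 2.08 CPM against 0.268 and 0.357 CPM. In ICM 3-4, 10, 6 and 4 genes of the 3 lists were called lower and 0, 0 and 1 higher. The largest falls were MFAP2 (-6.21), P4HA3, a collagen prolyl hydroxylase subunit (-4.91), and CTSS (-6.19), and the gene called higher was CTSL, cathepsin L (331.1 and 370.3 CPM against 118.2 and 112.7). As with the members, these counts stand beside 13.5% and 30.3% of all genes called. In the comparisons of siSRRM2, siBANF1 and siCTCF with their ICM libraries, edgeR called 0 genes in each list, an unadjusted p under 0.05 was reached by 2, 2 and 2 genes with siSRRM2, 2, 1 and 0 with siBANF1 and 0 in each with siCTCF, and DESeq2 called 1 crosslinking gene higher and 1 turnover gene lower with siSRRM2 and 0 otherwise.

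The genes whose levels ran most like that of ELN over the 14 libraries were named by Pearson's r of log2(CPM + 0.5) among 9201 genes, as a description, since the libraries share groups and ELN mainly separates untreated from ICM-treated cells. The first 5 were IGFBP7-AS1 (r = 0.983), an antisense gene whose reads cannot be assigned with certainty without strand, BACE2 (0.975), BEST1 (0.974), MIR1282 (0.974) and TCF25 (0.974). Overlaps of these 5 with other genes were not examined, so reads of a neighbouring gene may be counted in any of them. BEST1 was at a mean of 312.4 CPM in WT and 235.3 CPM in siHMGB2, and at 4.83 to 13.97 CPM under ICM, so it did not share the higher ELN level of siHMGB2. By Spearman's rho, 1 of these 5 (TCF25) stayed among the first 5. Among the members, FBLN1 was the most like ELN (r = 0.914), then FBLN2 (0.884) and EFEMP2 (0.883). FBLN5 (0.748), LOX (0.621), LOXL2 (0.612) and LOXL1 (0.594) followed, and FBN1 (0.339) and FBN2 (0.241) were the least alike.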

How the data were processed

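The authors deposited a table of raw read counts by gene symbol for each library. The submitters' processing notes name STAR 2.7.3a, HTSeq 0.12.4, DESeq2 1.36.0 and build hg38 without saying how each was used. The annotation and strand setting are not given in the sources used here. Reads given to no gene (12.8% to 41.8% of a library) were left out.

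CPM used total gene counts. Tests used edgeR 4.0.16 (quasi-likelihood, TMM, filterByExpr, Benjamini-Hochberg adjustment over all genes) in 1 fit to 14 libraries with a mean for each of 7 sets of libraries, ICM being divided by set. siHMGB2 against WT was fitted on its own 4 libraries, a choice made with earlier results known. The SE is the log2 fold change over the square root of F. Positions and exon lengths came from GENCODE v29.

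Members and lists were chosen with earlier results of these data known, among them the higher matrix genes in siHMGB2. Text names all members, the 4 knockdown targets, the called list genes with the largest rise and fall, and the 5 genes most like ELN. Other called list genes were named after their values were seen. Alternatives were other scalings (RLE, total counts), filters (none, a mean of at least 10 CPM), a threshold of 0.01, the Wald test of DESeq2 (version 1.42.0), fits to only the libraries compared, a replicate block and leaving out each library. A crossed replicate block was added after the data were seen. Fits were tested on simulated data.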

Additional observations from a re-analysis of the deposited data

Results flagged for a closer look

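Within the 4 ICM libraries, 3 members had 1 library far from the rest. FBN2 was at 333 CPM in ICM 1, FBLN2 at 16.8 CPM and LOXL2 at 1219 CPM, each the highest of the 4, and the gap to the next library exceeded Dixon's 95% critical value. Chance flags about 1 in 20 such groups, and the 4 libraries belong to 2 sets.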

How the results depend on the processing

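The direction of the called members held under all alternatives in siHMGB2 against WT, and that of ELN and FBLN1 in both ICM comparisons. Against 2 members called in ICM 1-2 against WT, an adjusted p under 0.01 gave 1, a minimum mean of 10 CPM gave 1, and a fit to the 4 compared libraries gave 0 members and 33 of all genes in place of 2582. The number of genes called there was 710 under 0.01, 3883 without a filter, 1038 above 10 CPM and 4010 with DESeq2. In ICM 3-4 against WT, 5 members became 3 under 0.01 and 10 without a filter or in the fit to the compared libraries, and 5797 genes became 2023 under 0.01, 3125 above 10 CPM and 9021 in the compared libraries. In siHMGB2 against WT the single fit to 14 libraries called 0 members and 0 genes, and 0.01 gave 806 of 1668 genes. In siSRRM2 against ICM 1-2, 0 members became 3 without a filter and 1 with DESeq2, and 34 genes became 1 under 0.01, 1 with total-count scaling, 814 without a filter, 76 above 10 CPM, 727 with DESeq2 and 0 in the compared libraries. In siBANF1 against ICM 1-2, 0 genes became 161 without a filter and 17 with DESeq2. With total-count scaling the all-gene median of the log2 fold change went from 0.10 to 0.24 in ICM 1-2 and from -0.02 to 0.18 in ICM 3-4, and the calls, 941 higher and 727 lower in siHMGB2 and 2732 higher and 3065 lower in ICM 3-4, divided into 786 and 999 and into 3448 and 2449, with the members called still 6 and 5. By Spearman's rho, 1 of the 5 genes most like ELN was retained. The causes of these moves were not tested.

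The replicate numbers mark no stated pairing, and with 2 pairs per comparison the correlations given here describe the libraries and are no test of one. The deviations of same-numbered libraries correlated at -0.25 for ICM 1-2 with WT, 0.168 for siHMGB2 with WT, 0.117 for siSRRM2 and 0.871 for both siBANF1 and siCTCF with their ICM libraries. A replicate block gave 3, 7, 0, 0 and 0 members in these comparisons and 1445, 2443, 105, 1 and 4 genes, and the log2 fold change of FBN1 with siSRRM2 became 0.094. Crossing the numbers of ICM 1-2 and WT gave 3 members and 1540 genes. In siBANF1 and siCTCF the same-numbered libraries thus differed in like ways from their ICM partners' pair. The main fits took no account of this, and leaving out 1 library there parts such a pair.

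Leaving out 1 library at a time gave 1 to 3 members and 545 to 3612 genes in ICM 1-2 against WT (3 without ICM 1, 1 without any other of the 4), 2 to 5 members and 1922 to 2602 genes in ICM 3-4 (2 without ICM 4, 3 without WT 2), 4 to 7 members and 610 to 1929 genes in siHMGB2 (fewest genes without siHMGB2 2), 0 members and 1 to 47 genes in siSRRM2 (1 gene without either siSRRM2 library), 0 members and 0 to 81 genes in siBANF1 (81 without siBANF1 2), and 0 of either in siCTCF. A lone library left in a group was assumed to vary like the other groups. In ICM 1-2 against WT the lowest log2 fold changes came without ICM 1 and the highest without ICM 2, and 5 members changed sign: FBN1 -1.21 to 1.27, FBN2 -0.71 to 1.33, FBLN5 -1.39 to 0.067, LOX -0.998 to 0.11 and LOXL2 -2.30 to 1.15. The replicate block also turned LOXL2, to -0.52. The other 5 were ELN -8.79 to -5.53, FBLN1 -5.11 to -2.31, FBLN2 -5.21 to -0.59, EFEMP2 -1.24 to -0.073 and LOXL1 -2.13 to -0.34. In ICM 3-4 all 10 kept their sign, lowest without ICM 3 and highest without ICM 4. The log2 fold change of FBLN1 with siHMGB2 ranged from -0.13 to 0.043. With siSRRM2 the signs of 6 members turned in this way: ELN -0.14 to 3.12, FBN1 -1.17 to 1.31, FBN2 -1.07 to 0.96, FBLN2 -2.31 to 2.31, FBLN5 -1.26 to 0.19 and EFEMP2 -0.99 to 0.18. With siBANF1 all 10 did: ELN -1.61 to 1.65, FBN1 -1.63 to 1.43, FBN2 -1.23 to 0.95, FBLN1 -1.85 to 1.51, FBLN2 -4.02 to 2.68, FBLN5 -0.91 to 0.55, EFEMP2 -0.98 to 0.19, LOX -0.88 to 0.30, LOXL1 -0.82 to 1.22 and LOXL2 -2.29 to 2.94. With siCTCF all 10 did as well: ELN -0.75 to 1.16, FBN1 -1.23 to 0.51, FBN2 -0.53 to 0.30, FBLN1 -0.62 to 0.39, FBLN2 -0.44 to 1.31, FBLN5 -1.10 to 0.86, EFEMP2 -0.41 to 0.61, LOX -1.10 to 0.90, LOXL1 -1.07 to 1.00 and LOXL2 -1.49 to 1.25.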
